A study of Mus musculus with 10 samples.

Results

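The PPAR, PGC-1 and ERR regulators are 10 genes named by symbol: the 3 peroxisome proliferator-activated receptors (Ppara, Ppard, Pparg), the 2 PGC-1 coactivators (Ppargc1a, Ppargc1b), the 3 estrogen-related receptors (Esrra, Esrrb, Esrrg), and the nuclear and mitochondrial factors Nrf1 and Tfam. They were taken from 56748 identifiers in the count tables, and all 10 were among the 15454 genes with enough counts to be tested. RNA was sequenced from the whole heart, both atria included, of 10 wild-type C57BL/6 male mice, bought at an age of 8 weeks. In the training group, 5 mice ran on a treadmill for 8 weeks, on 5 days a week, for 120 min a day at 15 m/min. In the sedentary group, 5 age-matched mice did not train. Each heart gave 1 library of poly-A RNA, and the labels number the mice of each group from 1 to 5.

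PPARs are nuclear receptors that fatty acids and their derivatives activate. They bind DNA with a retinoid X receptor (RXR) and, in heart muscle, switch on genes of fatty acid uptake, storage and oxidation. The ERRs are orphan receptors that bind genes of the citric acid cycle and the respiratory chain. The PGC-1 proteins bind no DNA themselves and are recruited by PPARs, ERRs and NRF1, and NRF1 in turn drives nuclear genes for mitochondria such as Tfam, whose product packs and transcribes mitochondrial DNA.

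The promoters of the 3 PPAR genes are shown because these were the regulators that differed between the groups, and that of Ppargc1a because its transcript varied most between hearts. Each sequence holds the 250 bases before the first base of the gene's canonical transcript, in GENCODE M39 on the GRCm39 genome. In the PPAR promoters, capitals mark each CG dinucleotide. The Ppara stretch lies at chr15:85619589-85619838 on the plus strand, that of Ppard at chr17:28451424-28451673 on the plus strand, and that of Pparg at chr6:115339003-115339252 on the plus strand. The stretch of Ppargc1a lies at chr5:51711265-51711514 on the minus strand, and its capitals mark the cAMP response element, TGACGTCA.
Ppara: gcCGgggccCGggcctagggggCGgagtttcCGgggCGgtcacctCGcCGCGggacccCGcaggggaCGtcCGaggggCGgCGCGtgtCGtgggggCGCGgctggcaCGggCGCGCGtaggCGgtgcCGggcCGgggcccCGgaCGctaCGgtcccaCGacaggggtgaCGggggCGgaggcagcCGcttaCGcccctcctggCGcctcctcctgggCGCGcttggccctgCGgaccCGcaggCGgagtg
Ppard: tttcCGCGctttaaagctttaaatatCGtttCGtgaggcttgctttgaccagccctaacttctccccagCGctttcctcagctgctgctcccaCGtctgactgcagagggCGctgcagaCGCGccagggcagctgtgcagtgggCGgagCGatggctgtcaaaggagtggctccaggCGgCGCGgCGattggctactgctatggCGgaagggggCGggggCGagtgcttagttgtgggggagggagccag
Pparg: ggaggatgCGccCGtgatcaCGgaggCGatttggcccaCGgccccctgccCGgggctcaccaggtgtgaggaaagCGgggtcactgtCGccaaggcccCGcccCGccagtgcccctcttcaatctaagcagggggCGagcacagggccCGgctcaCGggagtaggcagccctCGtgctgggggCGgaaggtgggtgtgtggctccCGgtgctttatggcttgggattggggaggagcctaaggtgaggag
Ppargc1a: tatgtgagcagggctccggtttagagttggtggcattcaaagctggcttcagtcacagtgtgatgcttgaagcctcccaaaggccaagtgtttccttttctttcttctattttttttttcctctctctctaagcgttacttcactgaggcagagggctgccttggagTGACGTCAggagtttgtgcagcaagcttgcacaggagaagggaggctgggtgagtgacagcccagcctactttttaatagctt

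The Ppara promoter held 38 CG dinucleotides and a GC content of 80.8%, Ppard held 18 at 62.0%, and Pparg held 16 at 68.4%. The median of the 21770 promoters of protein-coding genes was 8 CG dinucleotides and 53.2%, and 25.2% of them held 16 or more. In the Ppargc1a promoter the cAMP response element, the binding letters of CREB, which couples hormone signals to transcription, began 83 bases before the start. It was found on either strand in 1.69% of all promoters of that length, and this motif was added after the sequence had been seen. The NRF1 motif GCGCANGCG, found in 5.56% of promoters, matched Esrra at 132 bases before its start and no other regulator searched. The ERR element TNAAGGTCA, present in 1.09% of promoters, matched none of the regulator promoters extracted. Neither did the nuclear receptor hexamer AGGTCA (13.1%, and contained in the former) or its direct repeat 1 (0.0367%). The E-box CACGTG (6.26%) and the ETS motif CCGGAAG (6.89%) matched none either. Ppargc1b is left out of these statements, since its promoter sequence was not among those extracted. All motifs were searched on both strands.

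All 3 PPAR transcripts were lower in the training hearts, where they fell by 11.0% to 18.3%, and no other regulator passed the test. The test was edgeR's quasi-likelihood F test on raw counts, adjusted over all 15454 genes, with genes called at an FDR below 0.1. Of the 10 regulators 3 were called, all lower. Across all genes tested, 7.01% were called, 4.26% lower and 2.75% higher, and the median log2 fold change was 0.00026. Levels in single hearts are given as CPM, the counts scaled by each library's total after TMM correction.

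Ppara encodes the PPAR that is best known for fatty acid oxidation in heart and liver. The gene (ENSMUSG00000022383) lies on chromosome 15 from 85618656 to 85687067. Ppara overlaps Cdpf1 on the opposite strand (315 to 446 counts per heart), which the strand-specific counts keep apart. The transcript level of Ppara was 49.6, 41.2, 45.2, 40.3 and 45.2 CPM in training hearts 1 to 5, and 48.0, 50.9, 49.4, 59.4 and 59.3 CPM in sedentary hearts 1 to 5. Of the training hearts, 4 lay below every sedentary heart, while training heart 1 lay above sedentary hearts 1 and 3. The log2 fold change was −0.27 (SE 0.073, n = 5 per group, edgeR adjusted p = 0.0611). Group means were 44.3 ± 3.73 and 53.4 ± 5.52 CPM (SD).

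Ppard, which encodes the widely expressed PPAR delta, differed least in size and varied least between hearts among the 3 PPARs. The gene (ENSMUSG00000002250) lies on chromosome 17 from 28451674 to 28520448. The training hearts held 34.6, 37.0, 33.0, 35.5 and 35.6 CPM, and the sedentary hearts 37.9, 39.6, 40.6, 37.9 and 41.4 CPM. The groups did not overlap. The log2 fold change was −0.17 (SE 0.044, n = 5 per group, edgeR adjusted p = 0.0533), with means of 35.2 ± 1.46 and 39.5 ± 1.57 CPM (SD).

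Pparg encodes the PPAR that drives fat cell differentiation and is also made in endothelial cells and macrophages. The gene (ENSMUSG00000000440) lies on chromosome 6 from 115337675 to 115468268. Its level was 12.4, 13.0, 15.0, 14.0 and 15.1 CPM in the training hearts and 15.5, 17.4, 15.2, 18.3 and 18.8 CPM in the sedentary hearts. Again the groups did not overlap, although training hearts 3 and 5 and sedentary heart 3 lay close together. The log2 fold change was −0.29 (SE 0.076, n = 5 per group, edgeR adjusted p = 0.0535), with means of 13.9 ± 1.21 and 17.0 ± 1.64 CPM (SD). Ppard and Pparg were the 2 of 10 regulators whose CPM did not overlap between the groups, as was so for 5.06% of all genes tested.

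**Figure D1:**
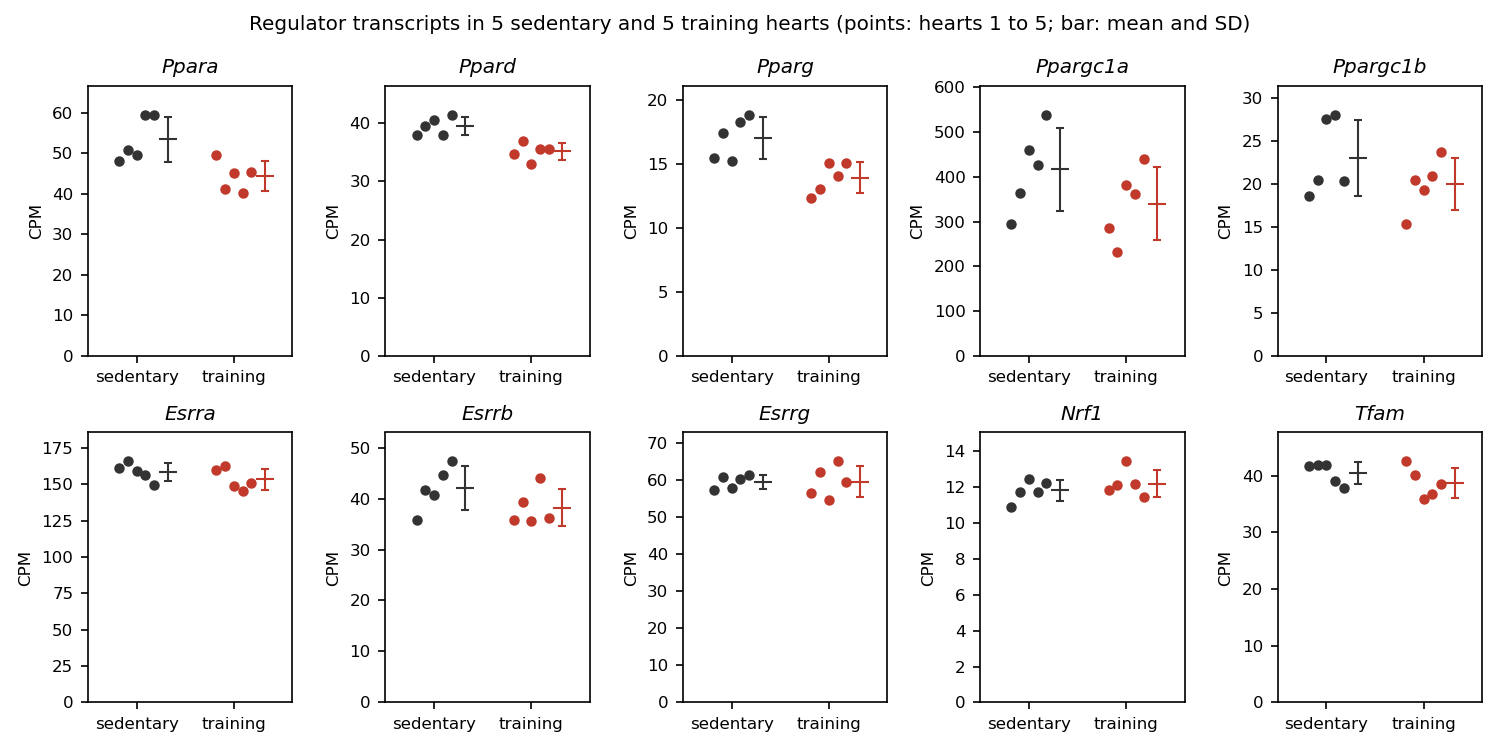
CPM of each regulator in the 5 sedentary (black) and 5 training (red) hearts, hearts 1 to 5 from left to right, with the mean and SD beside them and every axis starting at 0. The training hearts lie below all sedentary hearts for Ppard and Pparg, 4 of 5 do so for Ppara, and the groups overlap for the other regulators.

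These edgeR calls sat close to the threshold and were lost in some fits without single hearts and with atrial markers in the fit. With each heart left out in turn, Ppara was still called in 6 of 10 fits, Ppard in 5 and Pparg in 6, and the number of regulators called ranged from 0 (without training heart 4, or without sedentary heart 5) to 3. Without training heart 3, sedentary heart 2 or sedentary heart 4 it was 1, and without sedentary heart 3 it was 2. At an FDR below 0.05 edgeR called none, against 3 at an unadjusted p below 0.05. DESeq2 called 3 at an FDR below 0.1, Ppara, Ppard and Pparg (DESeq2 Wald test adjusted p = 0.0180, 0.0168 and 0.0146). All 25 alternatives kept the 3 log2 fold changes below 0. They include the reported fit read at an FDR below 0.05, where fold changes cannot move, and several reuse nearly the same counts.

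Markers of atrial muscle moved with the groups. All 6 (Nppa, Myl7, Myl4, Sln, Bmp10, Stard10) had a higher mean in training hearts, with Sln and Stard10 called, against 2.75% of all genes tested called higher. The summed level of the 6 markers was 4927 to 7481 CPM in training and 2755 to 6752 CPM in sedentary hearts, with overlap. Sedentary hearts 2 and 5 stood lowest in the mean log2 level of these markers. With that atrial score as a covariate no regulator was called, and the log2 fold changes were −0.24 for Ppara, −0.11 for Ppard and −0.23 for Pparg (edgeR adjusted p = 0.359, 0.452 and 0.385). Without sedentary hearts 2 and 5, a choice made after seeing the data, they were −0.23, −0.14 and −0.23 (edgeR adjusted p = 0.214, 0.232 and 0.238). In these whole-heart samples, fewer cells of a type and less RNA per cell cannot be told apart.

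The 6 adipocyte markers, among them Adipoq and Lep, all had a higher mean in training hearts, none was called by edgeR or DESeq2 and none had an unadjusted p below 0.05. Their summed level was 20.7 to 172 CPM in training and 18.1 to 139 CPM in sedentary hearts and overlapped widely. With the adipocyte score as a covariate the log2 fold changes were −0.27 for Ppara and −0.15 for Ppard, no longer called (edgeR adjusted p = 0.125 and 0.142), and Pparg was called with an edgeR adjusted p of 0.0880. The part of adipocyte RNA in the level of Pparg was not tested. The 5 endothelial markers summed to 666 to 729 CPM in training and 735 to 780 CPM in sedentary hearts. These sums did not overlap, while each marker taken alone did, and 5.06% of all genes tested had no overlap. Of the 5 endothelial markers 3 had log2 fold changes below 0, none was called by either tool, and 1 (Cdh5) had an unadjusted p below 0.05. The part of endothelial RNA in the level of Pparg was not tested. The 4 macrophage markers summed to 115 to 150.1 CPM in training and 121 to 146 CPM in sedentary hearts, and none was called by edgeR or DESeq2 or had an unadjusted p below 0.05. The 4 fibroblast markers all had log2 fold changes above 0, and Pdgfra was called, at 0.24, against 2.75% of all genes tested called higher. DESeq2 also called Tcf21, at 0.43 in the edgeR fit (edgeR adjusted p = 0.119), and these 2 had an unadjusted p below 0.05. The 6 cardiomyocyte markers had log2 fold changes below 0, with a median of −0.10, and none was called by edgeR, while 2 had an unadjusted p below 0.05 and DESeq2 called 3.

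**Figure D2:**
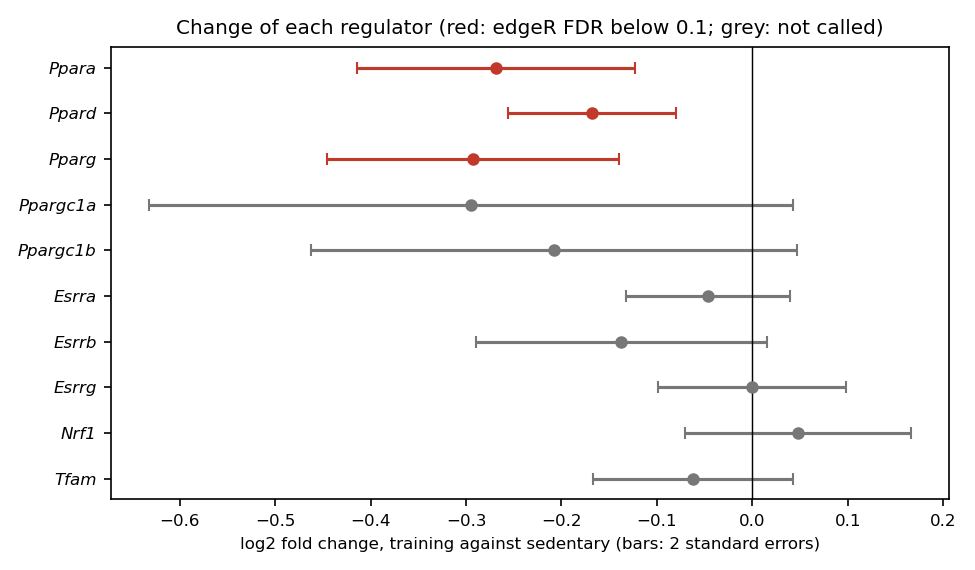
Log2 fold change of each regulator, training against sedentary, with bars of 2 standard errors from edgeR. Ppara, Ppard and Pparg (red) were called at −0.27, −0.17 and −0.29, Ppargc1a has a similar value with a wider bar, and Esrra, Esrrg, Nrf1 and Tfam lie near 0.

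The partners and target genes of the PPARs were read from the same fit. Among the 11 tested partner and competing receptors, 1 was called higher and 1 lower, against 2.75% and 4.26% of all genes tested. Their median log2 fold change was −0.05. The RXR genes, whose products pair with every PPAR, were not called: Rxra had a log2 fold change of 0.01, Rxrb −0.08 and Rxrg −0.12 (edgeR adjusted p = 0.947, 0.286 and 0.248), and these were named after their values had been seen. Rora, a receptor that acts in the circadian clock, was higher at 42.2 ± 3.42 against 35.9 ± 2.93 CPM (SD, n = 5, edgeR adjusted p = 0.0666). Nr0b2 (SHP), a receptor without a DNA-binding domain that represses other receptors, was lower at 9.31 ± 0.637 against 11.6 ± 1.5 CPM (SD, n = 5, edgeR adjusted p = 0.0695). Neither gene's groups were separate, and with each heart left out in turn 0 to 3 receptors were called, with 0 without training heart 3 or 4 or sedentary heart 2, 3 or 4. With the atrial or the adipocyte score as a covariate 0 were called by edgeR.

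Of 29 tested PPAR target genes 6 were called, all lower, and 26 had a lower mean in training hearts by edgeR. Their median log2 fold change was −0.12. Over all genes tested, 4.26% were called lower and 49.9% had a log2 fold change below 0. All 6 cardiomyocyte markers also lay below 0, with a median of −0.10 and 0 called by edgeR. Whether the targets differed from heart muscle genes at large was not tested. The PPAR target list follows textbook targets and was chosen with earlier results of these data known, so its direction is a description. Plin5, which coats lipid droplets in muscle, was 102 to 134 CPM in training and 152 to 174 CPM in sedentary hearts, a log2 fold change of −0.47 (SE 0.070, edgeR adjusted p = 0.00871). Cpt2, the carnitine transferase of the inner mitochondrial membrane, was 188 to 201 CPM against 216 to 248.5 CPM, with a log2 fold change of −0.28 (edgeR adjusted p = 0.0088). Fabp3, the fatty acid carrier of the heart cytosol, was 757 to 867 CPM against 938 to 1069 CPM, with a log2 fold change of −0.30 (edgeR adjusted p = 0.0105). Slc25a20, the carnitine-acylcarnitine carrier, and Cd36, the fatty acid uptake receptor, were lower by −0.23 and −0.21 on the log2 scale (edgeR adjusted p = 0.0354 and 0.0475). Plin5, Cpt2, Fabp3 and Slc25a20 did not overlap between the groups, while Cd36 did. In the whole list 6 of 29 genes did not overlap, against 5.06% of all genes tested. With each heart left out in turn 4 to 8 genes of this list were called, and with the atrial score as a covariate 1 was.

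Within hearts of 1 group, no relation of Ppara to its targets passed the test. Over the 10 hearts, after removal of group means, the Pearson correlation of Ppara with the mean of the 29 targets was r = −0.16 (exact permutation p = 0.675, hearts permuted within groups, two-sided, adjusted p = 0.835 over 8 relations). Spearman's rho was −0.15 (exact permutation p = 0.703, adjusted p = 0.765), and r was −0.44 without training heart 1 and sedentary heart 4. With group means kept, r was 0.43.

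The PGC-1 coactivators varied more between hearts than any other regulator and were not called. Ppargc1a encodes PGC-1 alpha, known to be raised by cold, fasting and exercise. The gene (ENSMUSG00000029167) lies on chromosome 5 from 51611592 to 51725068 on the minus strand. Its level was 285, 232, 382, 361 and 439 CPM in training hearts 1 to 5 and 296, 363, 461, 427 and 539 CPM in sedentary hearts 1 to 5. The highest heart held 2.32-fold the level of the lowest, and the groups overlapped widely. The log2 fold change was −0.29 (SE 0.17, n = 5 per group, edgeR adjusted p = 0.357), and 2 standard errors around it ran from −0.63 to 0.04. The coefficient of variation was 24.0% in training and 22.2% in sedentary hearts.

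Ppargc1b, which encodes the related PGC-1 beta (ENSMUSG00000033871), was 15.4, 20.5, 19.2, 20.9 and 23.7 CPM in the training hearts and 18.6, 20.5, 27.5, 28.0 and 20.4 CPM in the sedentary hearts. Sedentary hearts 3 and 4 stood above the others, and the remaining hearts overlapped. Ppargc1b had a log2 fold change of −0.21 (SE 0.13, n = 5 per group, edgeR adjusted p = 0.396).

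A second measure of Ppargc1a separated the groups. RSEM, the authors' second counting tool, weights the length of a gene over its annotated transcripts by their estimated levels, here over 5 transcripts of 488 to 6464 bases in GENCODE M39. This effective length of Ppargc1a was 4709 to 5091 bases in training hearts and 4391 to 4686 bases in sedentary hearts, with means of 4924 ± 154 and 4554 ± 125 bases (SD, n = 5). The groups did not overlap. The exact permutation p was 0.00794, the smallest that 5 against 5 hearts can give (two-sided), and 0.0794 after adjustment over the 10 regulators. Ppargc1a was the 1 of 10 regulators without overlap in this measure, as were 2.49% of 15441 genes. Ppargc1b had an exact permutation p of 0.0317 (adjusted 0.159) at 3531 ± 34.5 against 3455 ± 36.3 bases. This measure was chosen after its values had been seen, and which transcripts gained or lost weight was not tested, since levels of single transcripts were not analysed here.

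**Figure D3:**
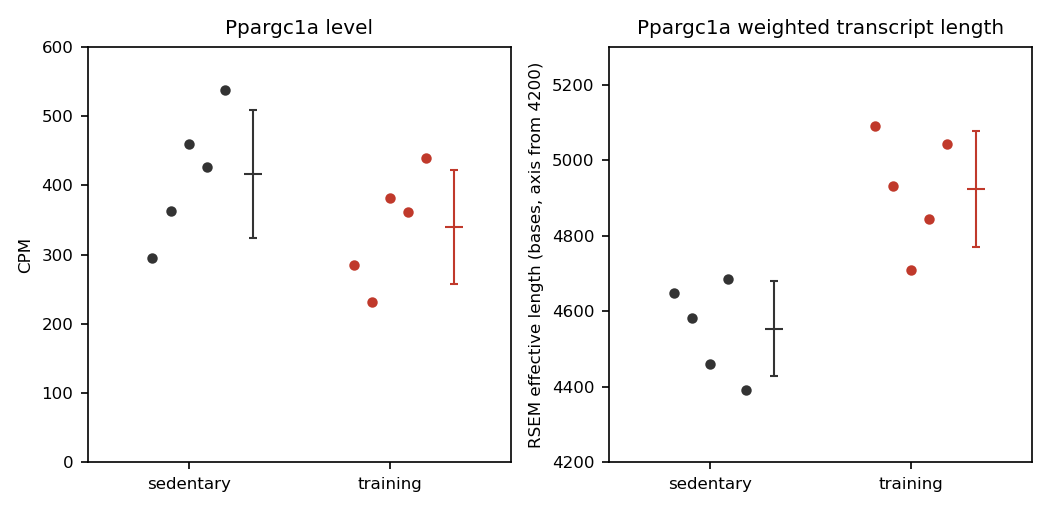
Ppargc1a in the 5 sedentary (black) and 5 training (red) hearts, with mean and SD. The left panel shows its CPM, which overlap between 232 and 539, and the right panel its RSEM effective length in bases on an axis that starts at 4200, where the training hearts lie at 4709 to 5091 and the sedentary hearts at 4391 to 4686.

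Of 17 tested coregulators that work with or against PGC-1, 5 were called lower and 0 higher by edgeR, DESeq2 called the same 5, and calls over all genes tested also leaned lower (4.26% lower, 2.75% higher). The median log2 fold change of the coregulators was −0.08. No coregulator beyond these 5 had an unadjusted p below 0.05. Lpin1, a phosphatidate phosphatase that also binds PGC-1 alpha, was 280.1 to 299.9 CPM in training and 303 to 359 CPM in sedentary hearts, a log2 fold change of −0.24 (edgeR adjusted p = 0.0223). Med1, the Mediator subunit that nuclear receptors contact, was 52.0 ± 1.64 against 58.4 ± 2.57 CPM (SD, n = 5, edgeR adjusted p = 0.0448), and neither gene overlapped between the groups. Perm1, a muscle gene induced by PGC-1 and ERR, had a log2 fold change of −0.20, Cited4 one of −0.34 and Ncor1, a corepressor, one of −0.15 (edgeR adjusted p = 0.0685, 0.0747 and 0.0957). With each heart left out in turn 1 to 5 were called, with 3 or fewer in all fits but those without sedentary heart 1 or 2, and 1 was called with the atrial score or the adipocyte score as a covariate, or with library totals alone.

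Of 22 genes of signals upstream of PGC-1, such as AMPK, calcineurin, p38 and CREB, 0 were called by edgeR, 5 had an unadjusted p below 0.05, and DESeq2 called 1, Prkag2. Without training heart 2 or sedentary heart 1 edgeR called 2, without sedentary heart 5 it called 1, and with library totals alone it called 3. The median log2 fold change was 0.01. Rcan1, a calcineurin-induced inhibitor of that phosphatase, was 117 ± 21.9 against 155 ± 29.9 CPM (SD, n = 5, edgeR adjusted p = 0.118). Prkag2, a regulatory subunit of AMPK, was 59.7 ± 7.28 against 50.2 ± 5.23 CPM (SD, n = 5, edgeR adjusted p = 0.125). Mapk14, Adrb1 and Prkab2 had log2 fold changes of −0.12, 0.17 and −0.12.

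No ERR gene passed the test between the groups. Esrra (ENSMUSG00000024955, chromosome 19 from 6888338 to 6899336, minus strand), the main ERR of oxidative tissue, was 159.7, 162.2, 148.5, 145.2 and 150.9 CPM in training hearts and 161.2, 165.6, 159.3, 156.4 and 149.1 CPM in sedentary hearts. Hearts of both groups were mixed over this range. The log2 fold change was −0.05 (SE 0.043, n = 5 per group, edgeR adjusted p = 0.598), with 2 standard errors from −0.13 to 0.04. Esrra overlaps Trmt112 on the opposite strand, which the strand-specific counts keep apart.

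Esrrb (ENSMUSG00000021255, chromosome 12 from 86407887 to 86568409), best known from embryonic stem cells, was 35.7 to 44.0 CPM in training and 35.7 to 47.3 CPM in sedentary hearts. Its log2 fold change was −0.14 (SE 0.076, n = 5 per group, edgeR adjusted p = 0.340). Esrrg (ENSMUSG00000026610, chromosome 1 from 187340988 to 187947082), an ERR of oxidative muscle and the perinatal heart, was 56.4, 62.0, 54.6, 64.9 and 59.4 CPM in training hearts and 57.1, 60.8, 57.9, 60.2 and 61.3 CPM in sedentary hearts. Both means were 59.5 CPM, with an SD of 4.18 in training and 1.85 in sedentary hearts, and 2 standard errors around the log2 fold change ran from −0.10 to 0.10 (edgeR adjusted p = 0.999).

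Of 20 tested ERR target genes 2 were called, both lower, and the values of 17 lay below 0 around a median log2 fold change of −0.08. Among all genes tested, 4.26% were called lower and 49.9% lay below 0. The 6 cardiomyocyte markers, all below 0, had a median of −0.10, and a difference of the ERR targets from them was not tested. Vegfa, the vascular growth factor that ERR alpha and PGC-1 alpha can induce, was 261 to 289 CPM in training and 298 to 374 CPM in sedentary hearts, a log2 fold change of −0.31 (edgeR adjusted p = 0.0158). Cycs, cytochrome c, was 115 ± 13.7 against 138 ± 10.1 CPM (SD, n = 5, edgeR adjusted p = 0.0714) and overlapped between the groups. Mpc1, Cox6a2 and Mpc2, which import pyruvate or form part of cytochrome c oxidase, had log2 fold changes of −0.15, −0.22 and −0.17 (edgeR adjusted p = 0.147, 0.150 and 0.160). With each heart left out in turn 1 to 4 genes of this list were called, with 1 in the 7 fits other than those without training heart 1 (4), sedentary heart 1 (4) or sedentary heart 5 (3). With the atrial score as a covariate 0 were called by edgeR, and with the adipocyte score or library totals alone 1 was.

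The 2 genes at the end of the chain, Nrf1 and Tfam, were not called. Nrf1 (ENSMUSG00000058440, chromosome 6 from 30047892 to 30153462) was 11.4 to 13.4 CPM in training and 10.9 to 12.5 CPM in sedentary hearts, a log2 fold change of 0.05 (SE 0.059, n = 5 per group, edgeR adjusted p = 0.708). Tfam (ENSMUSG00000003923, chromosome 10 from 71061287 to 71074110, minus strand) was 42.5, 40.2, 35.9, 36.8 and 38.5 CPM in training and 41.7, 41.9, 41.9, 39.1 and 37.9 CPM in sedentary hearts. Training heart 1 was the highest of all and training heart 3 the lowest, so the groups overlapped. Its log2 fold change was −0.06 (SE 0.052, n = 5 per group, edgeR adjusted p = 0.559).

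A further list held 22 genes, most of which express or copy mitochondrial DNA. Its other members (Lonp1, Gabpa, Gabpb1, Yy1, Nfe2l1, Nfe2l2 and Alas1) do not themselves do so. Of the 22, 1 was called, lower, against 4.26% of all genes tested, and the median log2 fold change was −0.06. Tfb2m, a partner of the mitochondrial RNA polymerase, was 22.2 to 24.1 CPM in training and 24.1 to 29.8 CPM in sedentary hearts, with a log2 fold change of −0.19 (edgeR adjusted p = 0.0840), and 0 to 2 genes of the list were called when single hearts were left out, with 0 without training heart 2, 3, 4 or 5 or sedentary heart 2 or 4, and 2 without sedentary heart 1. With the atrial score, the adipocyte score or library totals alone 0 were called by edgeR. DESeq2, run without a covariate, called 3. Polrmt, that polymerase, and Tefm, its elongation factor, had log2 fold changes of −0.18 and −0.19 (edgeR adjusted p = 0.128 and 0.131). Of the 13 protein-coding genes of mitochondrial DNA 7 were tested, all 7 had log2 fold changes below 0 with a median of −0.11, and 0 were called by edgeR. Of these 2 had an unadjusted p below 0.05, and DESeq2 called 1, mt-Nd2. Without training heart 1 or sedentary heart 1, 1 was called by edgeR. The other 6 had at most 17 counts in any heart. Multimapping reads are not in these counts, and whether the 6 were low in the hearts was not tested. The 7 tested genes therefore do not stand for all 13.

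Over the 10 hearts, with group means removed, Tfam had the strongest of the 8 relations computed, with the 22 genes of that list. Pearson's r was 0.71 (exact permutation p = 0.0512, adjusted p = 0.409) and Spearman's rho was 0.72 (exact permutation p = 0.0549, adjusted p = 0.439). It rested on training hearts 1 and 3, without which r was 0.25. Esrra and its 20 targets had r = 0.45 (exact permutation p = 0.239, adjusted p = 0.835). The remaining relations, of Esrrg and Ppargc1a to the ERR targets, Ppargc1a to the PPAR targets, Nrf1 to the mitochondrial list and Tfam to the genes of mitochondrial DNA, had r from −0.31 to 0.10, each with an adjusted exact permutation p of 0.835. Without the 2 hearts farthest from the median, r was −0.92 for Ppargc1a with the ERR targets (without training heart 2 and sedentary heart 1) and −0.81 for Tfam with the genes of mitochondrial DNA (without training hearts 1 and 3), from −0.18 and −0.20 over all 10 hearts, so these values turned on those hearts.

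**Figure D4:**
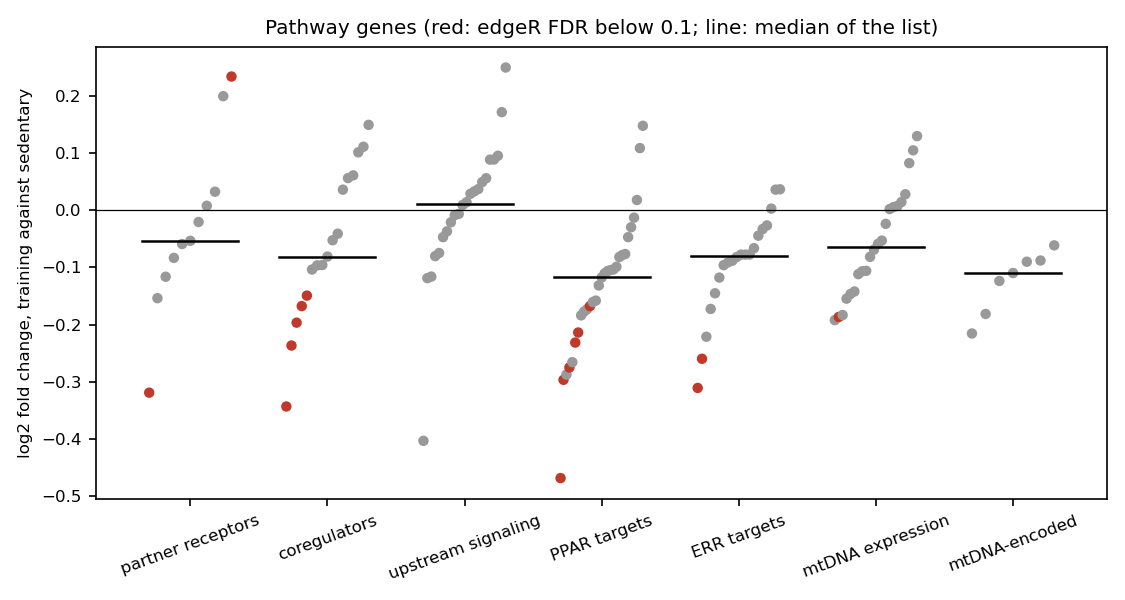
Log2 fold change of each tested gene in 7 pathway lists, training against sedentary, in ascending order within a list, with the median as a line and genes called by edgeR in red. The PPAR targets hold 6 called genes, all lower, with Plin5 lowest at −0.47, and 26 of their 29 points lie below 0.

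Levels of different genes were compared per transcript length, as TPM, the length-normalised level that RSEM gave. Averaged over the 10 hearts, Esrra (83.3 ± 4.10 TPM, SD) and Ppargc1a (80.8 ± 20.9) came first and were not ordered, with Esrra the higher in 5 of 10 hearts. Tfam followed at 33.2 ± 2.64 TPM, then Ppara at 17.0 ± 1.3, and neither overlapped with its neighbours. Ppard (12.9 ± 0.80) and Esrrg (12.4 ± 0.80) overlapped, with Ppard higher in 8 of 10 hearts. Esrrb (10.5 ± 1.07), Pparg (8.95 ± 1.13), Ppargc1b (6.17 ± 1.21) and Nrf1 (5.00 ± 0.559) came last, each overlapping in range with the next.

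**Figure D5:**
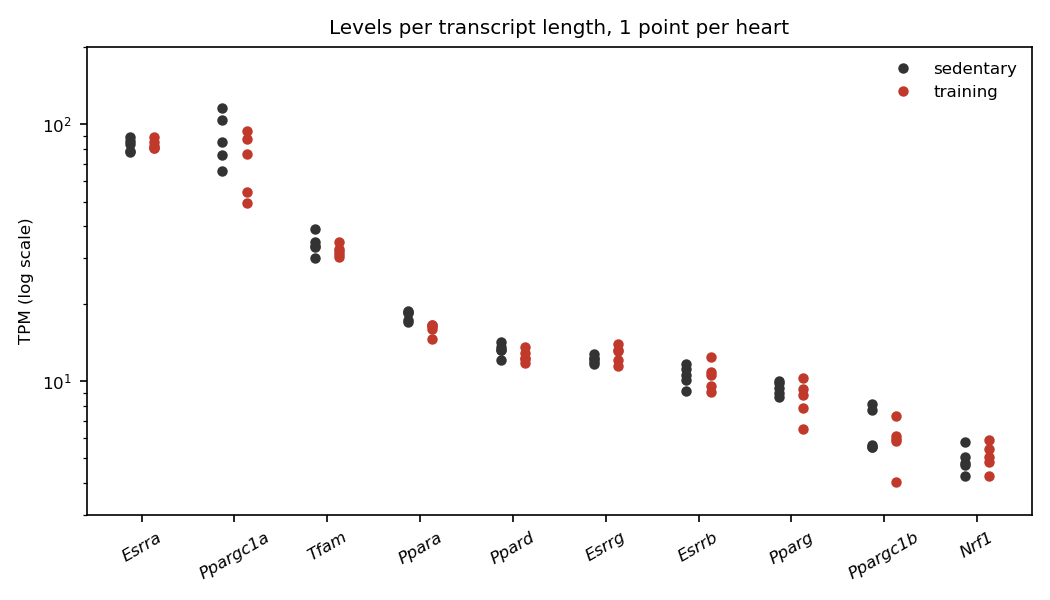
TPM of the 10 regulators on a log axis, 1 point per heart, sedentary in black and training in red, in order of the mean over all hearts. Esrra and Ppargc1a lead at 83.3 and 80.8 TPM with Ppargc1a spread more widely, Tfam and Ppara stand apart from their neighbours, and the others overlap.

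Neither the share of Ppara nor that of Pparg in the sum of the 3 PPAR genes passed the test, and that of Ppard was not tested. The summed level of the 3 genes was 34.5 to 38.9 TPM in training and 39.5 to 41.9 TPM in sedentary hearts, and it did not overlap. Ppara made up 43.2% ± 2.38 of that sum in training and 44.3% ± 1.28 in sedentary hearts (SD, n = 5, exact permutation p = 0.405, adjusted p = 0.886 over 5 shares). Without training heart 1 the difference of Ppara moved from −1.06 to −2.07 percentage points (exact permutation p = 0.0317, adjusted p = 0.159). Pparg made up 22.9% ± 3.05 and 23.1% ± 1.01 (exact permutation p = 0.960, adjusted p = 0.960). In TPM, Ppara alone of the 3 PPAR genes did not overlap between the groups, at 14.6 to 16.5 against 17.0 to 18.8. Ppard overlapped at 11.7 to 13.5 against 12.1 to 14.2, and Pparg at 6.48 to 10.3 against 8.65 to 10.0. Which PPAR genes separated the groups thus differed between TPM and CPM. The share of all genes without overlap in TPM was not computed, so none stands beside these TPM values.

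Ppargc1a held 92.3% ± 1.76 of the summed TPM of the 2 PGC-1 genes in training and 93.0% ± 1.44 in sedentary hearts (SD, n = 5, exact permutation p = 0.532, adjusted p = 0.886). Esrra held 78.3% ± 1.72 and 78.5% ± 1.70 of that of the ERR genes (exact permutation p = 0.857, adjusted p = 0.960), and Esrrg 11.9% ± 0.71 and 11.5% ± 0.529 (exact permutation p = 0.294, adjusted p = 0.886). The summed level of the PGC-1 genes was 55.1 to 101 TPM in training and 71.2 to 121 TPM in sedentary hearts, and that of the ERR genes 101 to 113 and 101 to 110 TPM, with overlap in both.

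The genes most like each called PPAR were sought among 13117 genes of at least 1 CPM, by the root mean square difference in centred log2 CPM over the 10 hearts. For Ppara, whose own root mean square was 0.18, they were Sfn, Rab27a, Max, Mapk6 and Tnik, at 0.057 to 0.081. For Ppard, with 0.099, they were Flad1, Smpd1, Eif3j1, Eps15l1 and Pacs2, at 0.025 to 0.035. For Pparg, with 0.19, they were Dgkh, Zc2hc1c, Ercc1, Notch4 and Nedd9, at 0.065 to 0.074. The 3 sets share no gene.

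Transcripts of the circadian clock, which is known to drive Ppara and Ppargc1a through the day, also moved with the groups. Of 12 clock genes 8 were called, 5 higher and 3 lower, against 7.01% of all genes tested. Among them were Bmal1 at −1.19, Clock at −0.30, Per3 at 0.80 and Nr1d2 at 0.43 on the log2 scale. Bmal1 was 5.67 to 8.67 CPM in training and 8.82 to 23.3 CPM in sedentary hearts. The authors state that the treadmill sessions took place in the daytime and at a fixed time of day, and the sedentary mice had none. The hour at which hearts were taken is not given in the sources used here. The part of the clock in the PPAR levels was not tested.

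Libraries held 29461697 to 39431030 counts on genes, and those of the training group were smaller on average. Counts per heart were at least 1294 for Ppara, 1074 for Ppard and 437 for Pparg. By the labels each library came from its own mouse. The authors' RSEM counts gave Ppara, Ppard and Pparg the same direction and call as the STAR counts.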

How the data were processed

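RNA of 10 mouse hearts was sequenced as single reads from directional poly-A libraries in 1 pool. With STAR 2.7.10a the authors aligned them to GRCm39, and they deposited raw counts per gene for each strand and for both. They also deposited expected counts, TPM values and effective lengths per gene from RSEM 1.3.3, whose strand setting is not given in the sources used here. TPM, shares and effective lengths depend on that setting.

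The reverse-strand counts, which held 94.9% to 95.6% of stranded counts per heart, were tested with edgeR 4.0.16 in R 4.3.3 (filterByExpr, TMM, quasi-likelihood F test, Benjamini-Hochberg adjustment over 15454 genes, FDR below 0.1). Summary lines of the tables entered neither library sizes nor tests, with multimapping reads at 17.9% to 19.2% and reads on no gene at 4.15% to 4.89% of all reads. RSEM expected counts were rounded where the count test was run on them. CPM used TMM library sizes, with a prior count of 2 on the log2 scale. Shares and effective lengths were tested by exact permutation of the hearts, two-sided. Symbols, positions and promoters came from GENCODE M39 on GRCm39, in which 56017 of 56748 identifiers matched. The steps were tested on simulated data.

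The members, gene lists and tests were chosen with earlier results of these data known. All 10 regulators were named, with up to 5 genes of smallest unadjusted p per pathway list and the 5 genes most like each called regulator; marker and clock genes were named where they stand beside a result. The alternatives tried were another scaling, DESeq2 1.42.0, other filters and counts, thinned depth, the mouse number as a block, covariates, an FDR of 0.05 and each heart left out. Counting error does not cover differences between mice, so all errors are between hearts.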

Additional observations from a re-analysis of the deposited data

Results flagged for a closer look

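Of 30 groups of 5 hearts tested for a heart that stands apart (the gap to its nearest neighbour over the whole range of the group), 2 had one, and chance gives about 1 in 20. Ppara made up 47.2% of the summed PPAR TPM in training heart 1, against 40.9% to 42.7% in the other 4 training hearts. Ppargc1a made up 89.2% of the summed PGC-1 TPM in training heart 2, against 92.7% to 93.7% in the other 4 training hearts. Training heart 1 also held the lowest Pparg level of all hearts, and training heart 2 the lowest Ppargc1a level, in CPM.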

How the results depend on the processing

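The 25 alternatives include the reported fit read at an FDR below 0.05, where fold changes cannot move. Ppara, Ppard and Pparg kept log2 fold changes below 0 in all 25, but not their calls. With each heart left out in turn their values ran from −0.31 to −0.23, −0.19 to −0.15 and −0.33 to −0.25, 0 to 3 regulators were called, and Esrrg ran from −0.034 to 0.030. At an FDR below 0.05, edgeR called 0 of 10 regulators (−0.27, −0.17 and −0.29 for the PPARs, as before). With the atrial score as a covariate the count was 0 (−0.24, −0.11 and −0.23), and with the adipocyte score 1 (Ppara −0.27, Ppard −0.15, edgeR adjusted p = 0.125 and 0.142, with Pparg called). Without sedentary hearts 2 and 5, chosen after seeing the data, it was 0 (−0.23, −0.14 and −0.23). The count of 1084 among 15454 genes became 111, 473, 282 and 505 with the atrial score, the adipocyte score, those 2 hearts left out and an FDR below 0.05. With each heart left out it was 512 to 1490. Fits with hearts left out filtered the genes anew, so the number of genes tested can differ from 15454 there.

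With library totals alone, which moved the median of all genes to 0.05, Ppard was −0.11 (edgeR adjusted p = 0.156), Esrra turned to 0.0059 and Esrrg to 0.054. Esrrg, at 0 in the fit reported, was 0.0022 with DESeq2 size factors, 0.0021 with DESeq2, 0.00025 with at least 10 counts in every heart, 0.0049 with RSEM counts, 0.0041 without mitochondrial DNA genes, 0.013 with thinned counts, 0.058 with the atrial score, 0.00069 with the adipocyte score and 0.030 without sedentary hearts 2 and 5. With the mean of the clock genes as a covariate Ppargc1a was called at −0.50 (edgeR adjusted p = 0.0509). That mean pools 5 clock genes called higher with 3 called lower and overlapped between the groups, so it does not carry the clock difference and this fit is no adjustment for it.

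Mice of both groups share numbers, but deviations of same-numbered hearts correlated at only −0.097 to 0.159, so the numbers were not taken to pair them. With the mouse number as a replicate block, 4 regulators were called, the 3 PPARs and Ppargc1a at −0.30 (edgeR adjusted p = 0.0495).

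Under counts per effective length, the share difference of Pparg turned to 0.13 percentage points. With a heart left out, share differences ran from −2.07 to −0.49 for Ppara, −0.99 to 0.93 for Pparg, −0.78 to 0.50 for Esrra and −1.11 to 0.015 for Ppargc1a. With group means kept, r turned to 0.43 for Ppara, 0.17 and 0.24 for Ppargc1a with the ERR and PPAR targets, and 0.046 for Tfam with mitochondrial DNA genes. The cause of these changes was not tested. Without the mitochondrial DNA genes their own list gave no value.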
